A study of Mus musculus with 12 samples.

Results

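Potassium channel subunit genes were followed in organoids grown from the cochlear epithelium of 5-day-old mice. The members were the protein-coding genes whose mouse symbol begins with Kcn, without Kcnj10 and Kcnj16. They numbered 92 of the 94 genes with such a symbol and of the 36047 genes that had a transcript in the tables. Each symbol was placed by its family letters into 1 of 9 classes, 6 of them classes of pore-forming subunits able to make channels and the others silent subunits, auxiliary subunits and a single regulator.

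Organoids came from 4 conditions with 3 libraries each, every library from a different animal. FST+LIN28B organoids carried the TRE-FST-288 and Col1a1-TRE-LIN28B transgenes, LIN28B organoids carried Col1a1-TRE-LIN28B only, and FST organoids carried TRE-FST-288 only. Controls were littermates without a responder transgene, and all 4 conditions carried R26rtTA*M2, a doxycycline-dependent activator driven from the Rosa26 locus in most cell types. Both transgenes encode the human protein, and their reads had only the mouse genes to be counted on. Every culture was kept in Matrigel for 7 days with EGF, FGF2, the Wnt agonist CHIR99021, valproic acid and 0.5 μg/ml doxycycline, so the controls received the drug as well.

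Potassium channels set the resting potential of a cell and return it to rest after depolarization. Pore-forming alpha subunits assemble as tetramers, or as dimers in the K2P family, and differ in what opens them: voltage in the Kv, EAG and KCNQ families, intracellular calcium in the Kcnn and Kcnma families, and neither in the inward rectifiers and the K2P leak channels. In the cochlea, supporting cells and the stria vascularis carry potassium away from hair cells and back into the endolymph, and hair cells use BK and SK channels, among others, to shape their electrical responses. FST is follistatin, a secreted protein that binds Activins, and LIN28B is an RNA-binding protein that blocks the maturation of let-7 microRNAs.

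Library depth was 42.7 to 65.3 M estimated counts. Mouse Lin28b stood at 119 to 221 TPM (a level corrected for transcript length and library total) in FST+LIN28B and 124 to 362 TPM in LIN28B, against 5.89 to 10.8 TPM in FST and 9.05 to 10.7 TPM in control libraries, and mouse Fst stood at 487 to 1160 TPM in FST+LIN28B and 190 to 602 TPM in FST, against 14.2 to 19.9 TPM in LIN28B and 6.79 to 12.1 TPM in control libraries. FST replicate 2 stood apart: it was the shallowest library, had the lowest Fst of the transgenic FST libraries, and placed 14.8% of its counts on non-coding transcripts, against 10.7 to 12.6% in the other 11. It held the highest TPM of 32 of the 68 members tested (47.1%), and of 42.9% of all genes tested. LIN28B replicate 2 held the highest TPM of a further 18 members (26.5%), against 13.3% of all genes tested. Supporting cell markers were summed at 1407 to 1475 TPM in FST+LIN28B, 1169 to 1341 TPM in LIN28B, 1954 to 2148 TPM in FST and 1867 to 2013 TPM in control libraries, all 10 of them above 0.1 TPM on average. The matching ranges were 38.5 to 45.9, 32.2 to 40.0, 32.7 to 42.9 and 32.7 to 34.9 TPM for 9 hair cell markers, with Otof under 0.1 TPM, and 70.7 to 92.9, 74.5 to 89.0, 68.3 to 105 and 59.4 to 77.3 TPM for 10 neuron markers. Most of the hair cell sum came from Myo6 and most of the neuron sum from Map2. Myo6 averaged 30.8 TPM in FST+LIN28B, 28.7 TPM in LIN28B, 30.25 TPM in FST and 30.1 TPM in control libraries. Map2 averaged 65.5, 67.8, 79.9 and 62.5 TPM in that order. In bulk RNA, a smaller number of cells of a type and less RNA per cell cannot be told apart.

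Which potassium channels the organoids express at all was asked first. A gene was taken as expressed when it had at least 1 TPM in all 3 libraries of a condition. By that rule 33 of the 92 members (35.9%) were expressed, against 60.1% of the 22028 protein-coding genes in the tables. A further 35 members passed the filter on low counts without reaching that level, 22 had between 1 and 83 counts over the 12 libraries together, and 2 had none. Expressed members were modest in level, with a median of 3.84 TPM over the 12 libraries against 23.6 TPM for all expressed protein-coding genes, and 5 of them averaged over 10 TPM. By condition, 30 members were expressed in FST+LIN28B, 33 in LIN28B, 29 in FST and 29 in control organoids, and 26 reached 1 TPM in every library. Since 1 TPM is an arbitrary level, 45 members were expressed at 0.5 TPM and 26 at 2 TPM.

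**Figure D1:**
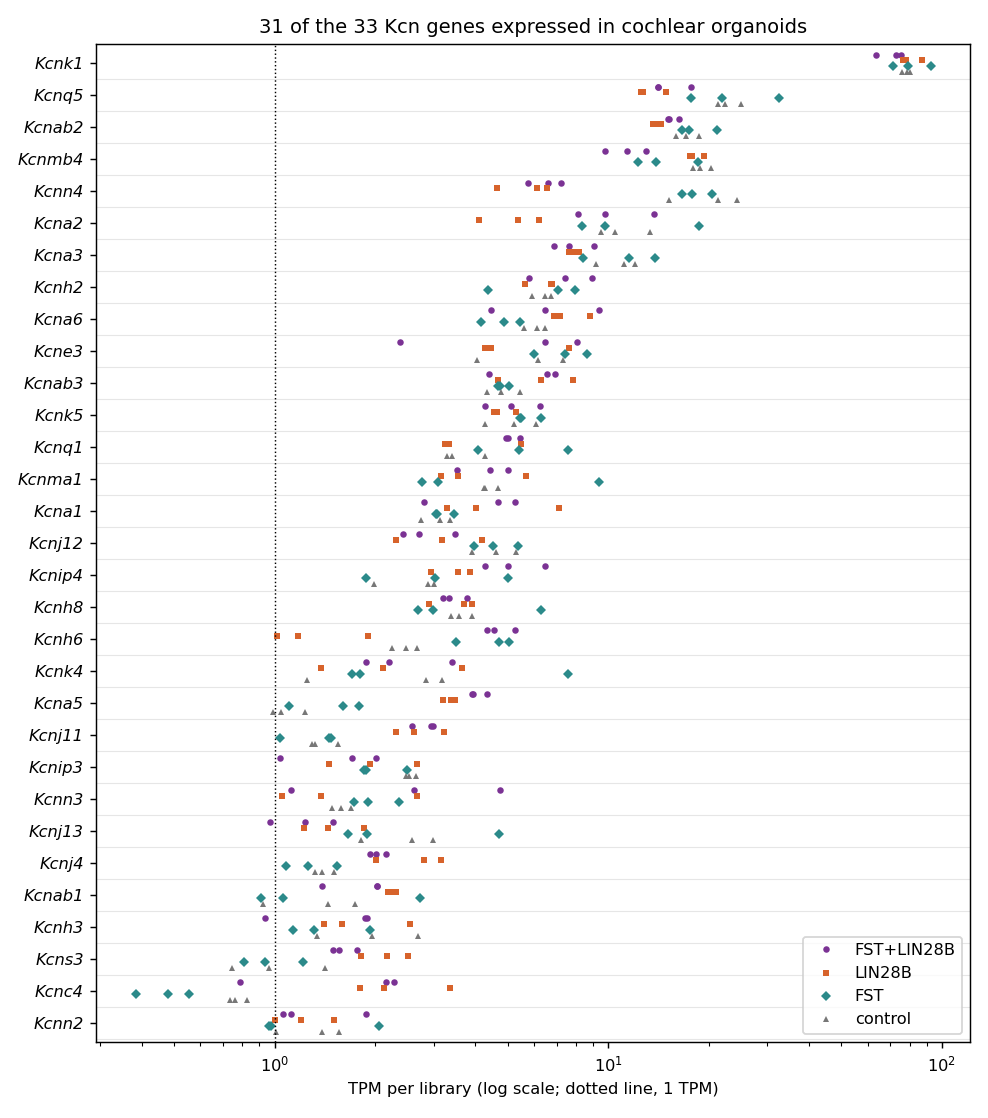
TPM of 31 of the 33 expressed Kcn genes in each of 12 libraries (log axis), ordered by mean, with FST+LIN28B, LIN28B, FST and control libraries in separate colours. Kcnk1 lies apart at 63.4 to 92.6 TPM. Genes for which the LIN28B-bearing libraries separate from the rest include Kcnn4, which was lower there, and Kcna5, Kcnj11 and Kcns3, which were higher there.

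Kcnk1, which encodes the K2P leak channel TWIK-1, was the leading member in every library. Its level was 75.7, 72.9 and 63.4 TPM in FST+LIN28B, 76.4, 77.8 and 87.4 TPM in LIN28B, 79.1, 71.4 and 92.6 TPM in FST and 76.1, 78.4 and 80.05 TPM in control libraries. All FST+LIN28B libraries were below all LIN28B and control libraries, by a small margin, and its difference passed the test in none of the comparisons. Kcnk1 alone made up 20.8 to 35.2% of the summed Kcn TPM, with the lowest share in FST replicate 2. The 5 leading members made up 44.1 to 60.0% and the 10 leading members 59.0 to 72.9%. Of the other 13 K2P genes, Kcnk5 (TASK-2, a leak channel sensitive to external pH) averaged 5.25 TPM and Kcnk4 (TRAAK, which responds to membrane stretch) 2.75 TPM, and no other member of the family was expressed by the rule. Most of the Kcnk4 TPM (81.1%, and 53.1% of its counts) came from 1 transcript of 600 bases, and Kcnk4 shares 13.1% of its exonic bases with Catsperz on the same strand, so its level is uncertain. The summed K2P level was 80.1 ± 6.49 TPM in FST+LIN28B, 89.8 ± 5.58 TPM in LIN28B, 92.4 ± 8.23 TPM in FST and 87.7 ± 1.56 TPM in control libraries (SD, n = 3 each).

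Of the 17 genes for Kv1 to Kv4 alpha subunits, 8 were expressed. Kcna2 (Kv1.2) averaged 9.80 TPM, Kcna3 (Kv1.3) 9.46 TPM and Kcna6 (Kv1.6) 6.31 TPM over the 12 libraries. Kcna2 stood at 9.80, 13.7 and 8.10 TPM in FST+LIN28B, 5.36, 4.10 and 6.19 TPM in LIN28B, 9.77, 18.8 and 8.36 TPM in FST and 13.4, 9.53 and 10.5 TPM in control libraries. Its LIN28B libraries were all below its control libraries and below its FST+LIN28B libraries, but neither difference passed the test. Kcna3 stood at 6.90 to 9.06 TPM in FST+LIN28B and 7.63 to 8.18 TPM in LIN28B, against 8.41 to 13.8 TPM in FST and 9.19 to 12.1 TPM in control libraries. All FST+LIN28B and LIN28B libraries were below all control libraries, the FST range overlapped the controls, and none of its differences passed. Kcna6 overlaps an antisense gene over 39.6% of its exonic bases, and the strand setting of the counting is not given in the sources used here, so reads of the pair cannot be told apart.

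Silent Kv subunits do not form channels by themselves and join other Kv subunits. Of these 10 genes, only Kcns3 (Kv9.3) was expressed by the rule, at 1.501 to 1.76 TPM in FST+LIN28B, 1.82 to 2.52 TPM in LIN28B, 0.812 to 1.22 TPM in FST and 0.744 to 1.42 TPM in control libraries. All LIN28B-bearing libraries were above all FST and control libraries for Kcns3, but it passed in no comparison. The class summed to 2.53 ± 0.305 TPM in FST+LIN28B, 3.79 ± 0.501 TPM in LIN28B, 1.80 ± 0.314 TPM in FST and 1.91 ± 0.526 TPM in control libraries (SD, n = 3 each). Kcns1 and Kcng1, the next by level, averaged 0.400 and 0.204 TPM, and Kcnv1 had no count in any library. Over the 12 libraries together, 0 counts allow up to 3, or 0.00435 CPM (counts scaled to the library total), for Kcnv1 and likewise for the K2P gene Kcnk16. This limit covers counting error only.

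**Figure D2:**
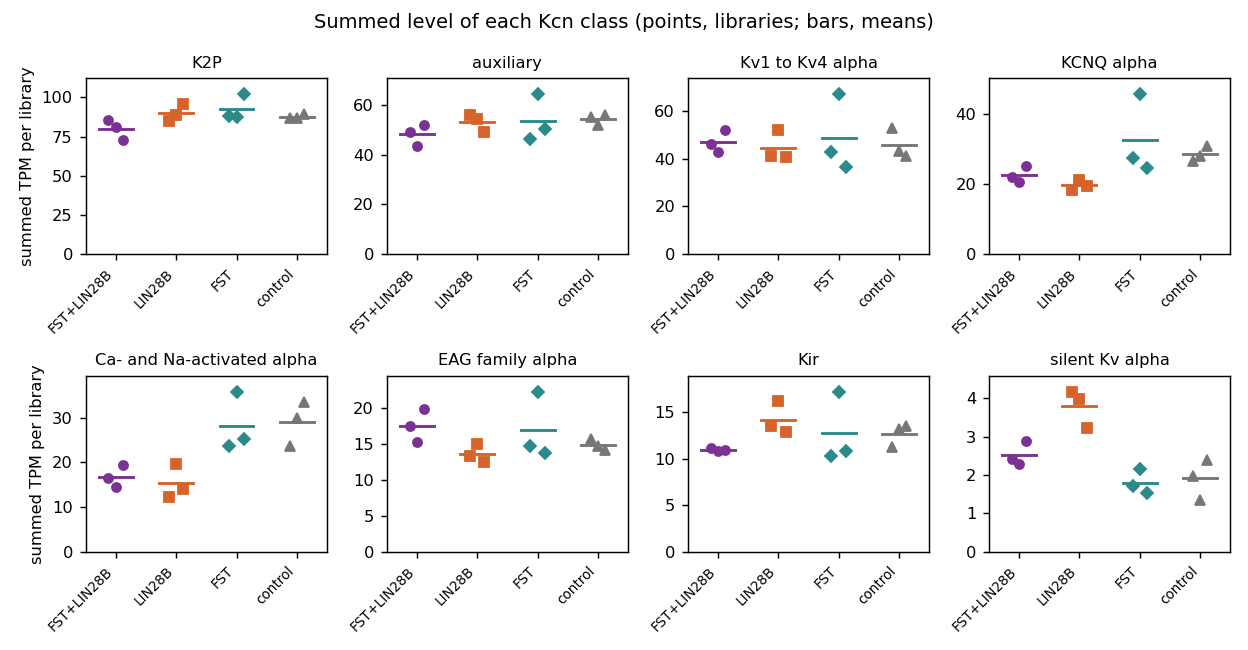
Summed TPM of 8 Kcn classes in each library, with bars at the means of 3 libraries. The calcium- and sodium-activated class lay at 14.4 to 19.5 TPM in FST+LIN28B and 12.3 to 19.7 TPM in LIN28B libraries, against 23.7 to 35.8 TPM in FST and 23.6 to 33.5 TPM in control libraries, and FST replicate 2 was the highest FST library in every class but K2P. Kcnn4 was the most abundant gene of the calcium- and sodium-activated class and was lower in the same libraries. The sum of that class without Kcnn4 was not taken.

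Of 8 EAG family genes, Kcnh2 (ERG1), Kcnh8 (Kv12.1), Kcnh6 (ERG2) and Kcnh3 (Kv12.2) were expressed. Kcnh2 averaged 7.40 ± 1.59 TPM in FST+LIN28B, 6.39 ± 0.642 TPM in LIN28B, 6.46 ± 1.87 TPM in FST and 6.37 ± 0.401 TPM in control libraries, and Kcnh8 averaged 3.44 ± 0.296 TPM in FST+LIN28B, 3.502 ± 0.526 TPM in LIN28B, 3.99 ± 2.00 TPM in FST and 3.62 ± 0.265 TPM in control libraries (SD, n = 3 each). Neither gene passed in any comparison. Of 5 KCNQ genes, Kcnq5 (Kv7.5, a subunit of the M current that restrains firing) and Kcnq1 (Kv7.1) were expressed. Kcnq5 was the second most abundant member and stood at 14.1, 14.1 and 17.8 TPM in FST+LIN28B, 12.6, 12.7 and 14.9 TPM in LIN28B, 21.9, 32.6 and 17.7 TPM in FST and 21.4, 22.4 and 24.9 TPM in control libraries. All of its FST+LIN28B and LIN28B libraries were below all of its control libraries. Its log2 fold change was -0.68 ± 0.14 (SE) in LIN28B against control and missed the threshold (edgeR adjusted p = 0.0124), although it passed without FST replicate 2, without FST+LIN28B replicate 3 and without LIN28B replicate 3. Kcnq3 averaged 1.21 TPM over the 12 libraries (0.452 to 3.45 TPM) but did not meet the rule. A 666-base processed transcript carried 68.7% of its TPM but 10.2% of its counts.

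Of 13 inward rectifier genes, Kcnj12 (Kir2.2), Kcnj11 (Kir6.2), Kcnj13 (Kir7.1) and Kcnj4 (Kir2.3) were expressed, the first at 2.31 to 5.38 TPM over the 12 libraries. Kcnj13, at 0.968 to 4.72 TPM, shares 49.1% of its exonic bases with Gigyf2 on the opposite strand and is uncertain for that reason. Of 8 calcium- and sodium-activated channel genes, Kcnn4, Kcnma1, Kcnn3 and Kcnn2 were expressed. Kcnn3 (SK3) varied widely between replicates, at 2.61, 1.117 and 4.73 TPM in FST+LIN28B, 1.38, 2.67 and 1.05 TPM in LIN28B, 1.91, 2.35 and 1.74 TPM in FST and 1.48, 1.58 and 1.69 TPM in control libraries. Its highest library and its second lowest were both FST+LIN28B libraries, and the 3 FST libraries lay just above the 3 control libraries. Kcnma1, the pore of the BK channel, averaged 4.48 TPM, but 72.1% of that came from 1 processed transcript of 447 bases that held 25% of its counts. With protein-coding transcripts only, Kcnma1, Kcnh3 and Kcnn2 no longer met the rule and 30 members were expressed.

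Auxiliary subunits bind the pore-forming subunits and change their gating or their transport to the surface. Of 16 such genes, 7 were expressed, led by Kcnab2 (the Kv1 partner Kvβ2) and Kcnmb4 (the BK partner β4). Kcnab2 stood at 15.2, 15.1 and 16.2 TPM in FST+LIN28B, 13.6, 14.2 and 14.4 TPM in LIN28B, 16.7, 21.1 and 17.4 TPM in FST and 18.6, 17.1 and 16.0 TPM in control libraries. Its LIN28B libraries were the lowest and lay apart from the control libraries, but no comparison passed. Kcne3, which can hold KCNQ1 open, averaged 5.64 ± 2.93 TPM in FST+LIN28B, 5.45 ± 1.90 TPM in LIN28B, 7.36 ± 1.34 TPM in FST and 5.85 ± 1.67 TPM in control libraries (SD, n = 3 each). Kcnrg, a cytosolic protein that interferes with channel assembly, averaged 0.741 TPM.

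Channels with a known role in the inner ear were mostly low. Kcnq1 and Kcne1 together make the channel through which strial marginal cells secrete potassium. Kcnq1 stood at 5.46, 4.93 and 5.01 TPM in FST+LIN28B, 3.25, 5.47 and 3.33 TPM in LIN28B, 4.07, 7.57 and 5.40 TPM in FST and 3.28, 4.28 and 3.40 TPM in control libraries, whereas Kcne1 had 30 counts in all 12 libraries together and stayed at or below 0.0820 TPM. Kcnn2 (SK2, at the efferent synapse of hair cells) spanned 0.963 to 2.06 TPM, Kcnj2 (Kir2.1) 0.297 to 0.944 TPM and the BK subunit gene Kcnmb1 0.146 to 1.31 TPM. Kcnk2 (TREK-1) stood at 0.0199 to 0.399 TPM, and Kcna10 (Kv1.8), known from vestibular hair cells of the mouse, had 19 counts in all. Kcne1 and Kcna10 did not pass the filter on low counts and were not tested. None of the others passed in a comparison.

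The comparisons asked which members changed with FST, with LIN28B and with both. Of the 92 members, 68 passed the filter on low counts and were tested together with all other genes, 18780 in all. In LIN28B against control, 2 members were called at an edgeR adjusted p under 0.01, Kcnn4 lower and Kcna5 higher (2.94% of the members tested, against 3.43% of all genes tested). At an unadjusted p under 0.05 the count was 24 members (35.3%), 17 higher and 7 lower, against 21.2% of all genes. In FST+LIN28B against control, the same 2 members were called in the same directions (2.94%, against 1.26% of all genes), with 17 members (25%) at an unadjusted p under 0.05 against 15.8% of all genes. In FST against control, no member was called by edgeR, DESeq2 or limma, and 0.0213% of all genes were called by edgeR. At an unadjusted p under 0.05, edgeR and DESeq2 each gave 6 members in FST against control (8.82%, against 3.74% of all genes) and limma gave 3 or 5 by pseudocount. Against control, the 68 members had a median log2 fold change of 0.06 in FST+LIN28B (all genes tested, -0.01), of 0.11 in LIN28B (all genes, -0.03) and of 0.10 in FST (all genes, 0.04).

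Counts of calls depended on single libraries. Without FST replicate 2, 8 members were called in LIN28B against control (11.4% of those tested, against 7.17% of all genes) and 4 in FST+LIN28B against control (5.71%, against 3.07% of all genes), so calls over all genes rose as well. In LIN28B against control, 4 were called without FST+LIN28B replicate 3 (5.56%, against 3.03% of all genes), and only Kcnn4 without control replicate 1 (1.41%, against 1.65% of all genes) or 3 (1.39%, against 0.882%). In FST+LIN28B against control, only Kcnn4 was called without control replicate 3 (1.39%, against 0.25% of all genes).

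In FST+LIN28B against LIN28B, 1 member was called, Kcnh6 (1.47%, against 0.506% of all genes). It lost the call without FST+LIN28B replicate 1 and without LIN28B replicate 2, when 0.167 and 0.188% of all genes were called. In FST+LIN28B against FST, Kcnn4 and Kcna5 were called again (2.94%, against 0.953% of all genes). That count was 0 without FST+LIN28B replicate 1 or 3 (0.193 and 0.271% of all genes), and 1 without any 1 of the LIN28B or control libraries or without FST replicate 1 (0.271 to 0.864% of all genes). The interaction of FST and LIN28B called no member by edgeR, DESeq2 or limma, against 0.00532% of all genes by edgeR. At an unadjusted p under 0.05 the interaction gave 5 members by edgeR and by DESeq2 (7.35% by edgeR, against 3.58% of all genes) and 4 or 3 by limma. A test for any difference among the 4 conditions called 7 members (10.3%, against 5.03% of all genes): Kcnn4, Kcna5, Kcnh6, Kcnc4, Kcnj11, Kcnj8 and Kcnmb4. That count was 3 without LIN28B replicate 1 or 2 (2.31 and 2.52% of all genes) and 4 without any 1 of the controls (2.69 to 3.23% of all genes).

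**Figure D3:**
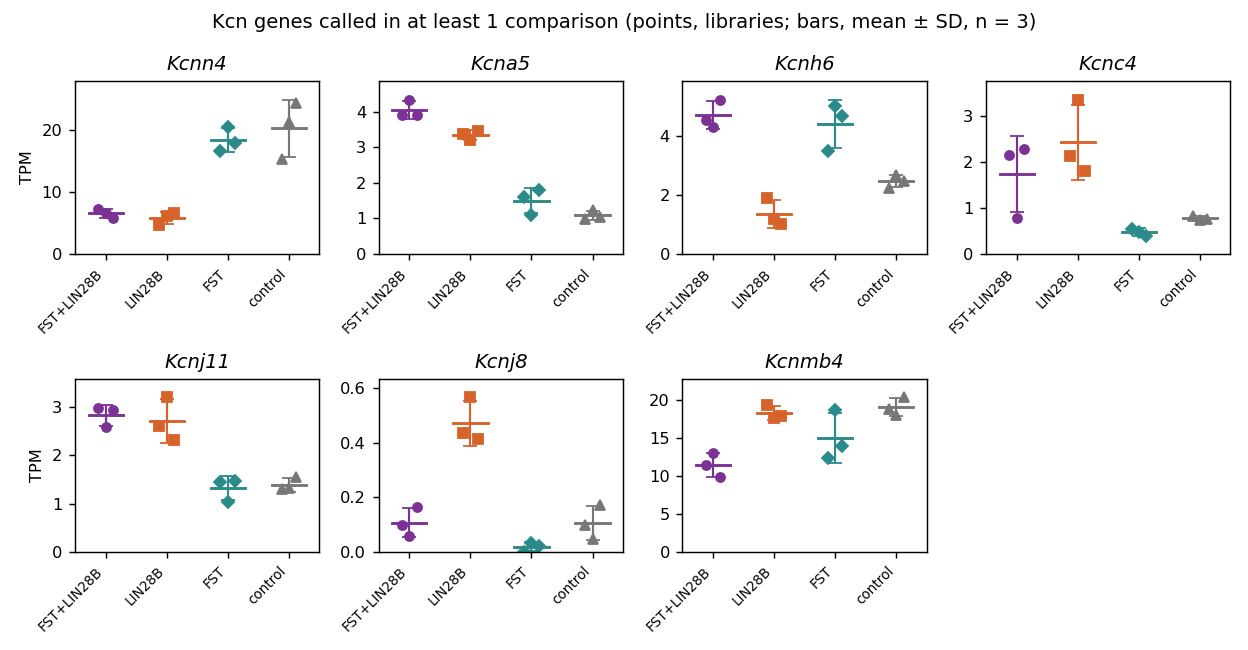
TPM per library of the 7 Kcn genes called in at least 1 comparison, with mean and SD of 3 libraries for FST+LIN28B, LIN28B, FST and control. Kcnn4 was lower and Kcna5 higher in both LIN28B-bearing conditions, whereas Kcnh6 was low in LIN28B alone.

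Kcnn4 (chromosome 7, 24370263 to 24386690, + strand of GRCm38) encodes KCa3.1, the intermediate-conductance channel that calcium opens through calmodulin and that lacks voltage gating. It fell in both LIN28B-bearing conditions, to about the same level in each. Its level was 7.24, 6.58 and 5.75 TPM in FST+LIN28B, 4.65, 6.13 and 6.54 TPM in LIN28B, 16.6, 20.4 and 17.8 TPM in FST and 15.2, 21.3 and 24.3 TPM in control libraries. Every FST+LIN28B and LIN28B library was below every FST and control library. The log2 fold change was -1.83 ± 0.18 in LIN28B against control (edgeR adjusted p = 0.000192) and -1.61 ± 0.18 in FST+LIN28B against control (edgeR adjusted p = 0.000853). It was -1.47 ± 0.18 in FST+LIN28B against FST (edgeR adjusted p = 0.00183). That comparison shares no library with LIN28B against control, but both p-values come from 1 fit of all 12 libraries. The log2 fold change was -0.13 ± 0.18 in FST against control and 0.23 ± 0.18 in FST+LIN28B against LIN28B (SE), neither passing the test. The call against control was kept in LIN28B and in FST+LIN28B when any 1 of the 12 libraries was left out. The call against FST was lost without FST+LIN28B replicate 1 or 3. The sum of supporting cell markers was also lower in every LIN28B-bearing library than in every FST and control library, with or without Tecta. The mean TPM of Tecta was 66.4 in FST+LIN28B and 61.0 in LIN28B, against 356 in control. Epcam was the largest part of the sum without Tecta. Its mean TPM was 758 in FST+LIN28B and 736 in LIN28B, against 899 in FST and 941 in control. A sum without both genes was not taken. The 10 markers went both ways: the mean was below control for 6 and above it for 4 in FST+LIN28B (Sox2, Sox9, Jag1 and Prox1), and below it for 8 and above it for 2 in LIN28B. Their part in the change of Kcnn4 was not tested.

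Kcna5 (chromosome 6, 126532551 to 126535412, - strand) encodes Kv1.5, a voltage-gated delayed rectifier. It rose in the conditions in which Kcnn4 fell. Its level was 3.90, 4.34 and 3.92 TPM in FST+LIN28B, 3.39, 3.20 and 3.47 TPM in LIN28B, 1.601, 1.11 and 1.79 TPM in FST and 0.989, 1.23 and 1.05 TPM in control libraries. All LIN28B-bearing libraries were above all FST and control libraries, and the FST and control ranges overlapped. The log2 fold change was 1.63 ± 0.24 in LIN28B against control (edgeR adjusted p = 0.00168), 1.95 ± 0.24 in FST+LIN28B against control (edgeR adjusted p = 0.00127) and 1.43 ± 0.23 in FST+LIN28B against FST (edgeR adjusted p = 0.00751). In FST against control it was 0.52 ± 0.24 (SE) and did not pass. Against control, the call in LIN28B was lost without control replicate 1 or 3 (lowest such adjusted p = 0.0104) and the call in FST+LIN28B without control replicate 3 (adjusted p = 0.0132), both by edgeR. Against FST the call held in only 2 of the 12 fits that left out 1 library, and it was also lost with a replicate block and with only the FST+LIN28B and FST libraries in the fit (edgeR adjusted p up to 0.0942).

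The annotated start regions of these genes are shown because both moved with LIN28B, in opposite directions. The RefSeq start of Kcna5 lies 143 bases from that of its most abundant Ensembl transcript, so its window falls outside the Ensembl gene span given above, whereas for Kcnn4 both starts are the same base. Each sequence is the RefSeq promoter of GRCm38.p6, from 250 bases before to 50 bases after the annotated start, with capitals for any of 4 motifs searched on both strands: AP-1 (TGANTCA), the TATA box (TATAAA), the GC box (GGGCGG) and the CCAAT box (CCAAT).
Kcnn4 promoter, chr7:24370013-24370312, + strand: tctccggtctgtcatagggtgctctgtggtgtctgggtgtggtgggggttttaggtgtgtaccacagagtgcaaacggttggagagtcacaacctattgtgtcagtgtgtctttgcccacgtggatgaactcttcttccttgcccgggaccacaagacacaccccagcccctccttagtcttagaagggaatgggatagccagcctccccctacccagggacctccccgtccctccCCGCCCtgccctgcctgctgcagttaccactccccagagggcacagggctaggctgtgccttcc
Kcna5 promoter, chr6:126535506-126535805, - strand: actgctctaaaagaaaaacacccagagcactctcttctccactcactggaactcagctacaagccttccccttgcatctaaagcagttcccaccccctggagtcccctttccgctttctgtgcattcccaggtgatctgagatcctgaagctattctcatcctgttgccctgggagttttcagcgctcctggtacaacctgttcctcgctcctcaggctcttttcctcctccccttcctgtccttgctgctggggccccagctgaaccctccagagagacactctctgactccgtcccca
The Kcnn4 window held 1 GC box, at position -14 on the opposite strand, and the Kcna5 window held none of the 4 motifs. No motif match overlapped another. A GC box occurs in 35.7% of the 32851 mouse promoters of that table, a CCAAT box in 37.4%, a TATA box in 13.6% and an AP-1 motif in 7.80%.

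Kcnh6 (chromosome 11, 106008124 to 106034549, + strand) encodes ERG2, a relative of the cardiac ERG1 channel. It was lowest with LIN28B alone and highest where FST was present. Its level was 4.55, 4.33 and 5.24 TPM in FST+LIN28B, 1.91, 1.18 and 1.02 TPM in LIN28B, 3.501, 5.03 and 4.70 TPM in FST and 2.25, 2.67 and 2.47 TPM in control libraries. The 3 LIN28B libraries lay below all the others, the controls came next, and the FST and FST+LIN28B libraries overlapped each other above all of the controls. The log2 fold change was 1.80 ± 0.22 in FST+LIN28B against LIN28B (edgeR adjusted p = 0.00164). Against control, FST+LIN28B organoids had 1.00 ± 0.22, LIN28B organoids -0.80 ± 0.22 and FST organoids 0.88 ± 0.22 (SE), and none of these passed by edgeR (adjusted p = 0.0239, 0.0398 and 0.319 in that order). The interaction term was 0.93 ± 0.30 (SE), with an unadjusted edgeR p of 0.00993 that did not survive adjustment over all genes.

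Both pore genes of the ATP-sensitive potassium channels, which couple metabolism to membrane potential, were among the 7 members that differed among the conditions. Kcnj11 (chromosome 7, 46093953 to 46100764, - strand), for Kir6.2, stood at 2.98, 2.58 and 2.95 TPM in FST+LIN28B, 2.62, 3.21 and 2.32 TPM in LIN28B, 1.45, 1.04 and 1.48 TPM in FST and 1.30, 1.32 and 1.55 TPM in control libraries. All LIN28B-bearing libraries were above all FST and control libraries. Its log2 fold change was 1.11 ± 0.24 in FST+LIN28B and 1.01 ± 0.24 in LIN28B against control (edgeR adjusted p = 0.0242 and 0.0220), both short of the threshold, and the test over all 4 conditions passed (edgeR adjusted p = 0.00846). Kcnj8 (chromosome 6, 142564837 to 142571614, - strand), for Kir6.1, stood at 0.0973, 0.0583 and 0.163 TPM in FST+LIN28B, 0.434, 0.567 and 0.415 TPM in LIN28B, 0, 0.0312 and 0.0224 TPM in FST and 0.0989, 0.0463 and 0.171 TPM in control libraries. It was higher in every LIN28B library than in any other library and rested on 0 to 50 counts per library. Its log2 fold change was 2.14 ± 0.58 in LIN28B and -2.61 ± 0.80 in FST against control (SE), with neither passing (edgeR adjusted p = 0.0381 and 0.603), and the test over all 4 conditions passed (edgeR adjusted p = 0.00401).

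Each Kir6 pore needs a sulfonylurea receptor to reach the cell surface. Abcc8, for SUR1, the usual partner of Kir6.2, stood at 5.55, 2.79 and 6.12 TPM in FST+LIN28B, 5.65, 8.18 and 2.99 TPM in LIN28B, 1.02, 1.08 and 1.096 TPM in FST and 1.61, 0.751 and 1.00 TPM in control libraries. Its LIN28B-bearing libraries were above all FST and control libraries, as for Kcnj11. Its log2 fold change was 2.10 ± 0.36 in LIN28B against control (edgeR adjusted p = 0.00444), a rise, and 1.89 ± 0.36 in FST+LIN28B against control, which missed the threshold (edgeR adjusted p = 0.0135). Abcc9, for SUR2, stood at 0.332, 0.407 and 0.429 TPM in FST+LIN28B, 0.595, 0.841 and 0.788 TPM in LIN28B, 0.218, 0.671 and 0.184 TPM in FST and 0.483, 0.330 and 0.310 TPM in control libraries, and none of its comparisons passed. Its LIN28B range overlapped only that of FST, through FST replicate 2.

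**Figure D4:**
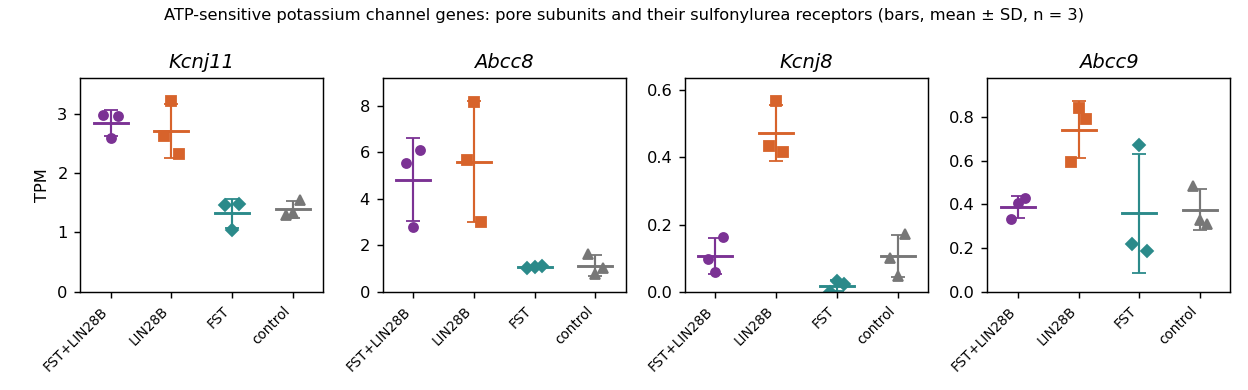
TPM per library of Kcnj11 and Abcc8 and of Kcnj8 and Abcc9, the pore and receptor genes of ATP-sensitive potassium channels, with mean and SD of 3 libraries. Kcnj11 and Abcc8 were higher in FST+LIN28B and LIN28B libraries than in all FST and control libraries, and Kcnj8 was higher in LIN28B libraries than in all the others.

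Kcnc4 (chromosome 3, 107438303 to 107459552, - strand) encodes Kv3.4, a fast-inactivating voltage-gated subunit. Its level was 2.16, 0.787 and 2.29 TPM in FST+LIN28B, 2.13, 3.37 and 1.80 TPM in LIN28B, 0.554, 0.479 and 0.385 TPM in FST and 0.827, 0.733 and 0.762 TPM in control libraries. Apart from FST+LIN28B replicate 2, which was near the controls, LIN28B-bearing libraries were well above the rest. Against control, FST+LIN28B organoids had a log2 fold change of 1.22 ± 0.36, LIN28B organoids one of 1.64 ± 0.36 and FST organoids one of -0.68 ± 0.36 (SE), and none passed by edgeR (adjusted p = 0.0876, 0.0153 and 1.00 in that order). The test over all 4 conditions passed (edgeR adjusted p = 0.00416).

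Because LIN28B acts on let-7, the 3′UTR of each member's leading coding transcript was searched for CTACCTC, the match to bases 2 to 8 of let-7. The mature let-7 sequences below, from RefSeq on GRCm38.p6, share that seed, which is in capitals, and the sites in Kcnc4 and in Kcnk6, another tested member, follow, written as DNA of the sense strand with the match in capitals.
mmu-let-7a-5p: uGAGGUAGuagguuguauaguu
mmu-let-7b-5p: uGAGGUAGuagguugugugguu
mmu-let-7g-5p: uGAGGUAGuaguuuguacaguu
Kcnc4 site, chr3:107438789-107438813, - strand: cagattggggttCTACCTCccaccc
Kcnk6 site, chr7:29222127-29222151, - strand: atttgtacagcaCTACCTCgtggac
The match was present in 7 of the 92 members (7.61%), against 7.43% of the 21685 genes searched in the same way. These shares are near each other, but the median 3′UTR was 1278 bases in the members and 706 bases in all genes searched. The shares were not adjusted for that length. Of the 7, which include Kcnc4 and Kcnk6, a K2P gene, 5 were tested. The Kcnc4 match lies at position 620 of a 3′UTR of 1118 bases. Of the 5, only Kcnc4 was called in the test over all 4 conditions. The median log2 fold change of the 5 in LIN28B against control was 0.11, beside 0.12 for the 63 tested members without a match and 0.06 for the 1462 tested genes with one. A match is a description of the sequence and does not show that let-7 binds there.

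Kcnmb4 (chromosome 10, 116417861 to 116473878, - strand), for the β4 subunit that slows BK channels, had its lowest levels in FST+LIN28B. Its level was 11.4, 13.0 and 9.80 TPM in FST+LIN28B, 19.3, 17.6 and 17.9 TPM in LIN28B, 12.3, 18.6 and 13.9 TPM in FST and 18.8, 17.96 and 20.3 TPM in control libraries. All FST+LIN28B libraries were below all LIN28B and control libraries, and 2 of the 3 FST libraries were as well, with FST replicate 2 the exception. Against control, FST+LIN28B organoids had a log2 fold change of -0.70 ± 0.13, LIN28B organoids one of 0.03 ± 0.13 and FST organoids one of -0.39 ± 0.13 (SE), and none passed by edgeR (adjusted p = 0.0135, 0.947 and 0.914 in that order). The test over all 4 conditions passed (edgeR adjusted p = 0.00932). Antisense genes overlap 10.7 and 20.8% of its exonic bases.

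The members with the smallest p in FST against control, beside Kcnh6, Kcnj8 and Kcnmb4, were Kcnq1 and Kcng3. The log2 fold change of Kcnq1 was 0.74 ± 0.19 (SE, edgeR adjusted p = 0.393). Kcng3 (Kv6.3, a silent subunit) stood at 0.0924, 0.0943 and 0.0749 TPM in FST, against 0.256, 0.183 and 0.163 TPM in control libraries. All 3 FST libraries were below the controls, with a log2 fold change of -1.17 ± 0.45 (SE) that did not pass (edgeR adjusted p = 1.00).

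LIN28B against control and FST+LIN28B against FST share no library, so the members can be set side by side in them. Their p-values come from 1 fit of all 12 libraries and rest on a shared estimate of spread. Of the 24 members with an unadjusted p under 0.05 in LIN28B against control, 20 (83.3%) had the same sign in FST+LIN28B against FST, and 10 of these (41.7% of the 24) also had an unadjusted p under 0.05 there. For all genes tested the matching shares were 93.1 and 48.2% of 3973. The 4 members of opposite sign were Kcnh6, Kcnj6, Kcnj14 and Kcns1. Kcnj6 (Kir3.2), named here after its values were seen, stood at 0.139, 0.123 and 0.494 TPM in FST+LIN28B, 1.73, 1.31 and 0.862 TPM in LIN28B, 0.166, 0.585 and 0.159 TPM in FST and 0.280, 0.176 and 0.269 TPM in control libraries. Its LIN28B libraries were above all the others, and no comparison passed for it.

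**Figure D5:**
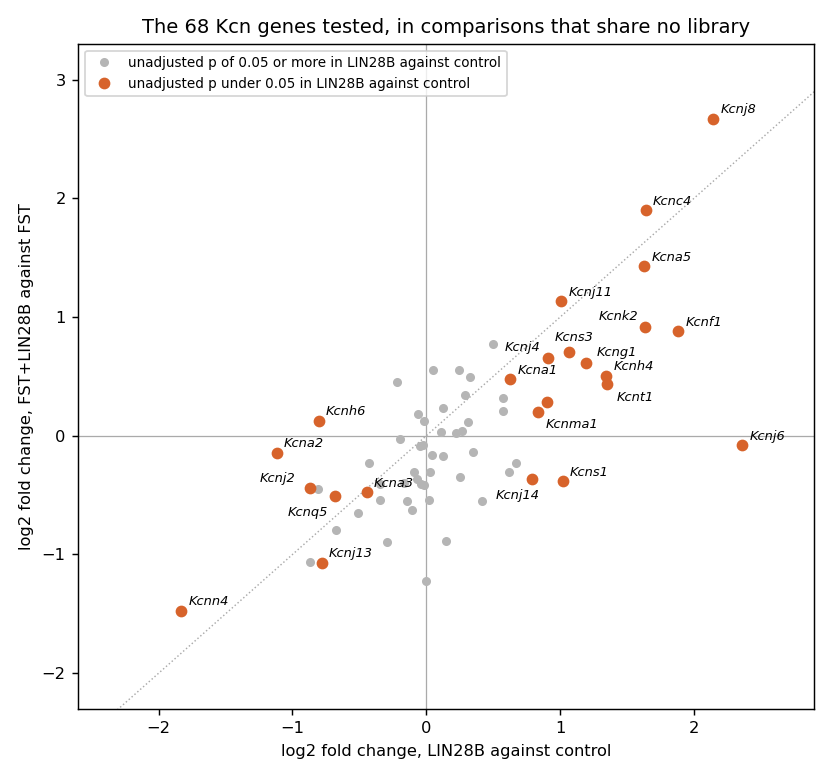
Log2 fold change of the 68 Kcn genes tested in LIN28B against control (x axis) and in FST+LIN28B against FST (y axis), with 23 of the 24 genes of unadjusted p under 0.05 on the x axis named. Kcnn4 and Kcna5 lie near the dotted line of equal change, and Kcnh6, Kcnj6, Kcnj14 and Kcns1 have opposite signs on the axes.

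Proteins that gate, gather or degrade potassium channels without a Kcn symbol were taken from a list of 19 partner genes, of which 16 were tested. In LIN28B against control 3 of the 16 passed, Abcc8 and Lrrc55 higher and Cntnap2 lower, against 3.43% of all genes tested. In FST+LIN28B against control only Lrrc55 passed, against 1.26% of all genes tested. None passed in FST against control, against 0.0213% of all genes tested. Lrrc55, for a γ subunit of the BK channel, stood at 4.55, 2.59 and 2.31 TPM in FST+LIN28B, 3.75, 2.75 and 0.753 TPM in LIN28B, 0.124, 0.333 and 0.424 TPM in FST and 0.205, 0.153 and 0.173 TPM in control libraries. Its lowest LIN28B-bearing library was above all FST and control libraries, with a log2 fold change of 4.26 ± 0.62 in FST+LIN28B and 3.82 ± 0.61 in LIN28B against control (SE, edgeR adjusted p = 0.00307 and 0.00282). Cntnap2, for CASPR2, which gathers Kv1 channels on axons, stood at 50.9, 40.4 and 51.4 TPM in FST+LIN28B, 18.3, 20.5 and 29.8 TPM in LIN28B, 68.3, 55.9 and 68.4 TPM in FST and 50.7, 49.0 and 58.9 TPM in control libraries. All LIN28B libraries were below all the others, and it fell in LIN28B against control, with a log2 fold change of -1.14 ± 0.19 (SE, edgeR adjusted p = 0.00378), while -0.09 ± 0.19 in FST+LIN28B against control did not pass. The most abundant partners were Vapa, which holds voltage-gated channels at junctions with the endoplasmic reticulum, Dpp6, an auxiliary subunit of Kv4 channels, and Nedd4l, a ubiquitin ligase for KCNQ channels, and none of the 3 passed in these comparisons. Dpp6 averaged 69.9 ± 3.25 TPM in FST+LIN28B, 68.9 ± 4.69 TPM in LIN28B, 72.6 ± 31.0 TPM in FST and 69.0 ± 4.24 TPM in control libraries (SD, n = 3 each).

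Potassium pumps and cotransporters are the other route of potassium across the membrane. Of 19 tested from a list of 24, 1 gene passed against control, in FST+LIN28B and in LIN28B. Of all genes tested, 1.26 and 3.43% passed in these comparisons. Slc12a4, for the potassium chloride cotransporter KCC1, stood at 10.04, 9.56 and 9.68 TPM in FST+LIN28B, 16.2, 23.1 and 13.3 TPM in LIN28B, 4.27, 4.50 and 4.84 TPM in FST and 4.62, 4.34 and 4.68 TPM in control libraries. The LIN28B-bearing libraries were above all the rest, and the log2 fold change was 1.17 ± 0.14 in FST+LIN28B and 2.00 ± 0.14 in LIN28B against control (SE, edgeR adjusted p = 0.00106 and 3.29e-05). Of the 8 neuron markers tested, Nefl rose in both of these comparisons and Nefm rose in LIN28B against control. Of the 7 hair cell markers tested, Pou4f3 rose in both comparisons and Myo7a rose in LIN28B against control. No other neuron or hair cell marker passed in either comparison. Stmn2 and Syt1 of the neurons and Slc17a8 of the hair cells had negative log2 fold changes in both. Myo6 and Otof had negative ones in LIN28B against control only. The other markers tested in these lists had positive ones in both. Of the 10 supporting cell markers, Tecta fell in both comparisons and Prox1 rose in LIN28B against control. The part of neurons, hair cells or supporting cells in the changes of potassium channel genes was not tested.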

How the data were processed

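RNA from 12 organoid cultures was sequenced as pairs of 50 bases from stranded total RNA libraries. Per the labels and the study's methods, the authors pseudo-aligned the reads with kallisto 0.46.1 to Ensembl release 96 mouse transcripts (GRCm38) and deposited expected counts (estimated counts) per transcript, with lengths and effective lengths, which are another kind of value in these files. The strand setting of kallisto is not given in the sources used here. Of 118489 transcripts, 116816 were assigned to genes through the GENCODE M21 annotation, and the unassigned 1673 held 0.543 to 0.598% of counts. These estimates were added up over the transcripts of a gene and rounded to whole numbers. TPM was computed here from estimated counts and effective lengths.

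The members and lists were chosen with earlier results of these data known. Members were named when called in any of 7 comparisons, among the 3 highest of their class, on a list of inner ear channels, among the 5 smallest p against control, or at 0 counts. Of the partner list, called genes and the 3 highest are named. A few members that enter these counts are not reported here by name.

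All 12 libraries were fitted together with edgeR 4.0.16 (robust quasi-likelihood, TMM, filterByExpr with a count minimum of 10), and p-values were adjusted by Benjamini-Hochberg over 18780 genes at a threshold of 0.01. The biological coefficient of variation was 0.266. DESeq2 1.42.0 and limma 3.58.1, on log2(TPM + 1) and log2(TPM + 0.1), were alternatives, as were other size factors, no filter, a replicate block, length-rescaled counts, coding transcripts only, and leaving out each library. The fit was also run on simulated counts with known fold changes and the same spread for all genes. Those counts had no library that stood apart, as FST replicate 2 does here.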

Additional observations from a re-analysis of the deposited data

Results flagged for a closer look

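Kcnh6 differed between LIN28B organoids with and without FST in the direct comparison of these conditions; the interaction term did not pass after adjustment. Its log2 fold change was 1.80 in FST+LIN28B against LIN28B (edgeR adjusted p = 0.00164), with 4.55, 4.33 and 5.24 TPM in FST+LIN28B and 1.91, 1.18 and 1.02 TPM in LIN28B libraries, and higher in 3 of 3 libraries. It passed in 9 of 9 other fits and in 10 of 12 fits that left out 1 library, with an adjusted p of up to 0.0140 in the other two.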

How the results depend on the processing

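At an edgeR adjusted p under 0.05, 5 members were called in FST+LIN28B against control (7.35%, against 3.89% of all genes), 13 in LIN28B against control (19.1%, against 8.41%), 2 in FST+LIN28B against LIN28B (2.94%, against 1.62%), 4 in FST+LIN28B against FST (5.88%, against 3.29%) and 15 in the test for any difference (22.1%, against 10.2%), and none in FST against control or the interaction. At the threshold of 0.01, where edgeR called 2, 2, 1, 2 and 7 members in that order, DESeq2 called 6 (8.82%, against 5% of all genes), 13 (19.7%, against 8.81%), 4 (5.88%, against 2.47%), 4 (6.06%, against 4.38%) and 15 (22.1%, against 12.4%). With only the 2 conditions compared in the fit, 7 were called in LIN28B against control (10.3%, against 6.7% of all genes) and 1 in FST+LIN28B against FST (1.54%, against 0.111%), where Kcna5 lost its call. limma gave 4 in the test for any difference with either pseudocount (5.88%, against 3.53 and 3.69% of all genes). Leaving out 1 library gave 1 to 4 members in FST+LIN28B against control, 1 to 8 in LIN28B against control, 0 to 1 in FST+LIN28B against LIN28B, 0 to 2 in FST+LIN28B against FST, 3 to 10 for any difference, and 33 to 35 members expressed.

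The 27 fold changes were checked 592 times, by refits and by reading the unchanged fit at an edgeR adjusted p under 0.05. Of these checks, 533 kept direction and side of the threshold, 19 lost the call, 31 gained one and 9 turned direction. Only results called at the start, for Kcnn4, Kcna5 and Kcnh6, could lose a call. Some of the gains came from the looser threshold alone. The values that turned were -0.31 and -0.26 for Kcnj8 in FST+LIN28B against control, without FST+LIN28B replicate 3 and without control replicate 2 (range -0.31 to 0.54 over the 12 fits that left out 1 library). Kcnmb4 in LIN28B against control was -0.021 with length-rescaled counts, -0.054 on log2(TPM + 1), -0.057 on log2(TPM + 0.1), and -0.0054 and -0.011 without LIN28B replicate 1 and control replicate 1 (range -0.011 to 0.11). Kcnj11 in FST against control was 0.20 without FST replicate 2 and 0.00095 without control replicate 2 (range -0.19 to 0.20). None of these 3 results passed the test. The cause of these changes was not tested.

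No pairing of the libraries by replicate number was detected, although 3 libraries per condition are too few to exclude one. Deviations from the condition means correlated at -0.327 to 0.185 (median 0.0262, 18 pairs) between libraries of the same number and at -0.233 to 0.249 (median 0.00876, 36 pairs) between others. With replicate number as a block, 1 member was called in FST+LIN28B against FST (0.453% of all genes), where Kcna5 lost its call, and 4 in the test for any difference (3.1% of all genes), and no other count moved.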
